A study of Mus musculus with 2 samples.

Results

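The AP-1 and ATF3 early response factors are 10 mouse genes taken by name: Fos, Fosb and Fosl2 of the FOS family, Jun, Junb and Jund of the JUN family, Atf3, and the early response genes Ier2, Ier3 and Myc. They are 10 of the 54446 genes counted in the series. Their expression was compared between an untreated control library and an IL-36 gamma library, each from macrophages grown out of the bone marrow of C57BL/6 mice. IL-36 gamma is an interleukin-1 family cytokine, and its dose, the exposure time and the age, sex and number of mice were not given in the sources used here. Both groups are primary wild-type cultures as far as the labels say, and no genetic change is named. Each group is 1 library, so no difference had a replicate check and no p-value can be given. In bulk RNA, a change in the number of cells that express a gene and a change in the RNA per cell cannot be told apart.

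AP-1 is a family of paired transcription factors. FOS proteins pair with JUN proteins but not with themselves, while JUN proteins can also pair with each other, with ATF proteins or with MAF proteins, and the pair decides which DNA element is bound. Signals from cytokine receptors of the interleukin-1 family reach these genes through the MAP kinases, which act on serum response factor at the Fos promoter and phosphorylate JUN. Most of these transcripts appear within minutes of a stimulus and are short-lived, in part through AU-rich elements in the 3′ untranslated region. ATF3 is a stress-induced relative that limits inflammatory genes in macrophages, and MYC drives growth and ribosome production.

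The control library held 17426367 gene counts and the IL-36 gamma library 17267900. Genes whose counts averaged 10 or more were treated as measured, which left 14379 genes and 9 of the 10 early response factors. Ratios are IL-36 gamma over control after scaling of the libraries, with a 95% exact interval that covers counting error only. Of 10 macrophage markers, all were measured, 3 lay above 1 with their whole interval and 6 below. Their summed level was 29668 and 29488 CPM, which are counts scaled to a library total of 1000000. Lyz2 alone made up 22763 and 22462 CPM of these sums, so they say little of the other markers. The ratios of the macrophage markers ran from 0.672 for Mrc1 to 1.35 for Fcgr1. Summed neutrophil markers were at 151 and 243 CPM, with 6 of 9 measured markers above 1 and 0 below, and fibroblast markers at 13.1 and 7.80 CPM, with 0 of 5 above and 3 below. Elane, a gene of young neutrophils, had the highest ratio of the neutrophil markers, on only 3 and 22 counts. Ly6g, another of them, had 8 and 9 counts, a ratio of 1.18 (0.404 to 3.52). The part of these cells in the results below was not tested. Of 6 T cell markers, Cd3e, Cd3g and Cd8a were at 0 counts in both libraries, and Cd4, the 1 measured, had 232 and 128 counts, a ratio of 0.579 (0.463 to 0.722).

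The early response factors covered a wide range of levels, and most of the transcripts were already abundant in untreated macrophages. In CPM per kilobase of exon, Jund stood highest at 215 in the control library and 275 in the IL-36 gamma library. Atf3 was next at 167 and 202, followed by Junb at 116 and 135. Those 3 transcripts lay above at least 97.2% of measured genes on this scale in both libraries. Fos was at 74.3 and 75.9 and Jun at 48.9 and 56.0. Ier2, at 20.0 and 20.4, Ier3, at 15.6 and 16.6, and Myc, at 11.5 and 11.3, formed a lower tier. Fosl2 was at 6.01 and 4.98, near the middle of all measured genes. Fosb was almost absent, at 5 counts in the control and 7 in the IL-36 gamma library. The order from Jund down to Fosb was the same in both libraries, and no neighbours in it had overlapping counting intervals. The order depends on the length used. Per kilobase of coding sequence Atf3 came first, Jund second and Fosl2 sixth.

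**Figure D1:**
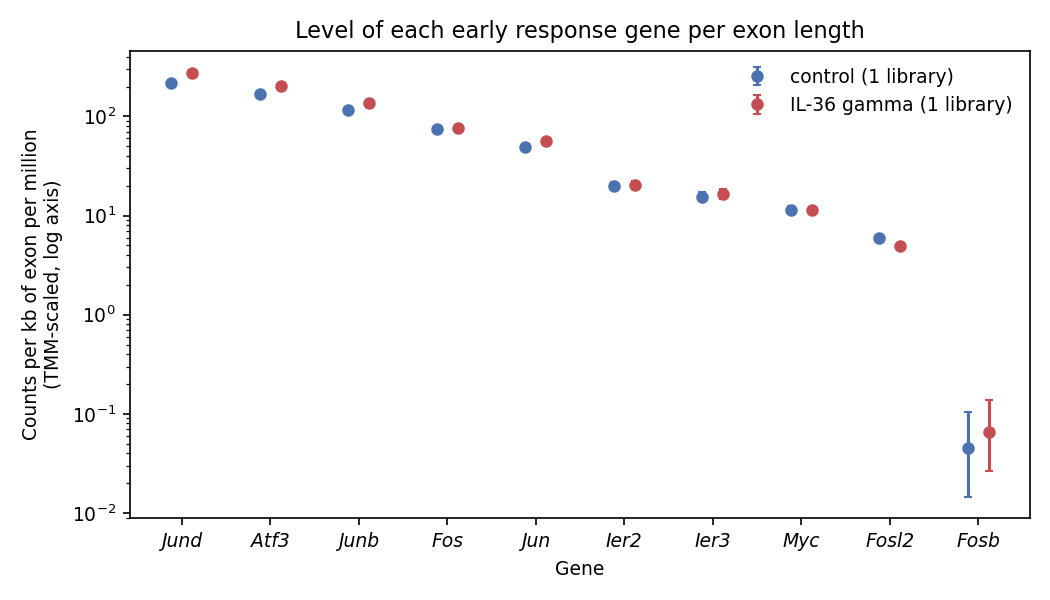
Level of each early response factor in CPM per kilobase of exon (log axis) in the control library and the IL-36 gamma library; bars are 95% exact Poisson intervals of the counts. The 10 genes keep their order in both libraries, from Jund at 215 and 275 to Fosb at 0.0451 and 0.0662.

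The JUN family was higher in the IL-36 gamma library in all 3 genes, by 15% to 28%. Jund, at chr8:70698949-70700616 on mm10 and a single exon, is the JUN protein known for steady expression and weak activation. It had 6384 counts in the control and 7761 in the IL-36 gamma library, a ratio of 1.28 (interval 1.23 to 1.32). Junb, at chr8:84974484-84978718, encodes the JUN protein that often opposes JUN. It had 4747 and 5278 counts, a ratio of 1.17 (1.12 to 1.21). Jun, at chr4:95049034-95052222, is the strongest activator of the family and a direct target of the JNK kinases. It had 2770 and 3026 counts, a ratio of 1.15 (1.09 to 1.21). All 3 intervals lay above 1 and none reached 2-fold. Pooled, the family had 13901 and 16065 counts, a ratio of 1.21 (1.19 to 1.24).

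The 3 JUN genes overlap genes on the other strand, and whether the libraries and the counting kept strand was not given. The antisense gene Gm11175 lies with all 877 of its exonic bases inside the 1668 bases of Jund. It had 5803 and 6860 counts, a ratio of 1.24 (1.20 to 1.28), and its counts per kilobase, 6617 and 7822, were above the 3827 and 4653 of Jund. The counts of Jund and Gm11175 added together gave 12187 and 14621, a ratio of 1.26 (1.23 to 1.29). Junos shares 232 of the 3189 exonic bases of Jun, and went the other way, with 666 and 534 counts and a ratio of 0.842 (0.750 to 0.945). Prdx2, a peroxide-reducing enzyme gene, shares 173 of the 2301 bases of Junb, and had 2862 and 3514 counts and a ratio of 1.29 (1.23 to 1.35). How far the counts of each pair hold reads of the partner was not tested, so the JUN values carry that uncertainty.

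Atf3, at chr1:191170296-191218039 and with 4 exons in its longest-coding transcript, was the only other early response factor whose interval lay above 1. It had 6381 counts in the control and 7366 in the IL-36 gamma library, a ratio of 1.21 (1.17 to 1.25). The difference is close in size to that of the pooled JUN genes, and Atf3 stood above 85.6% of measured genes by ratio, while Jund stood above 90.2%.

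The FOS family had no common direction. Fos, at chr12:85473890-85477273, is the founding immediate early gene and encodes the main partner of JUN. It had 3104 and 3024 counts, a ratio of 1.02 (0.972 to 1.08). Fosl2, at chr5:32135801-32157842, encodes FRA2, a FOS protein that lacks the strong activation domain of FOS. It had 1034 and 816 counts, a ratio of 0.828 (0.755 to 0.909), and was the only early response factor whose interval lay below 1. Fosb, at chr7:19302696-19310051, was under the count filter. Its ratio of 1.47 had an interval of 0.401 to 5.87, so no difference was detectable at this depth. Fosl1, the FRA1 gene that completes the family, had 50 and 63 counts and an interval of 0.898 to 1.96. Pooled over the 4 FOS genes, the counts were 4193 and 3910, a ratio of 0.979 (0.937 to 1.02), whose interval did not overlap that of the pooled JUN genes.

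Ier2, Ier3 and Myc had intervals that spanned 1. Ier2, at chr8:84661331-84662852, encodes a nuclear regulator that appears quickly after growth signals. It had 541 and 525 counts, a ratio of 1.02 (0.902 to 1.15). Ier3, at chr17:35821684-35822923, encodes a stress protein that affects survival and MAP kinase signalling. It had 313 and 317 counts, a ratio of 1.06 (0.906 to 1.25). Myc, at chr15:61985391-61990374, had 554 and 521 counts, a ratio of 0.987 (0.874 to 1.11). The intervals together ran from 0.874 to 1.25, so a small change in any of these 3 genes was not detectable at this depth.

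**Figure D2:**
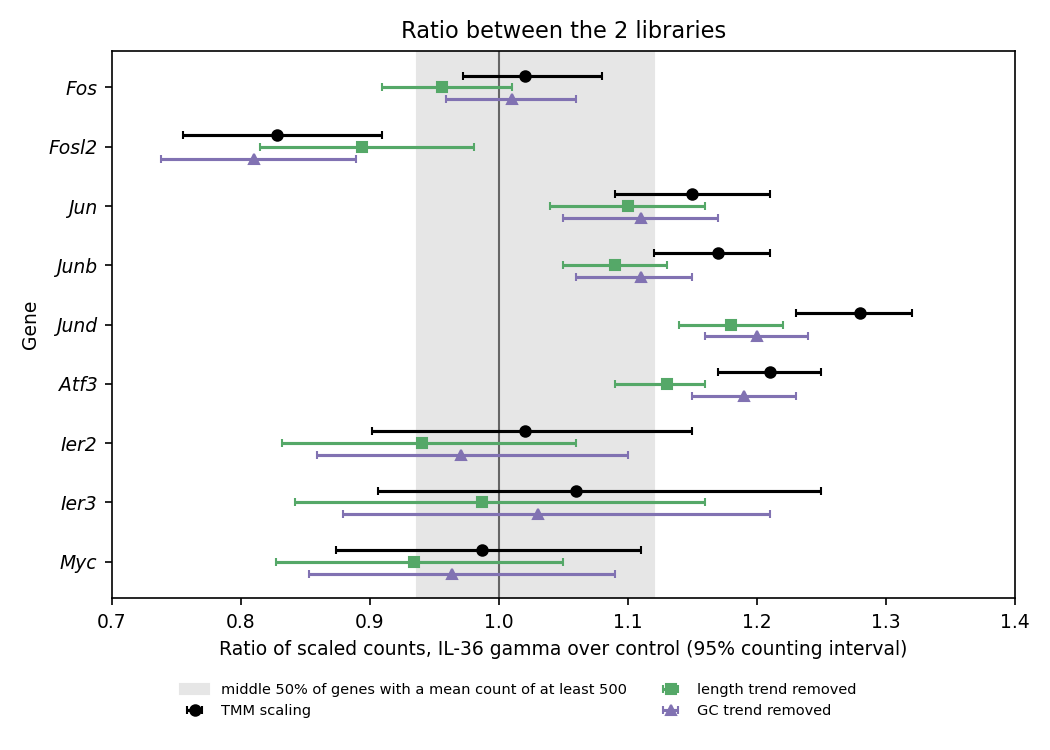
Ratio of scaled counts, IL-36 gamma over control, for the 9 measured early response factors, with 95% exact counting intervals. Values are shown after TMM scaling and after removal of the trend on exon length or on GC content. The grey band holds the middle 50% of the genes that averaged 500 counts or more, by TMM-scaled ratios with no trend removed. Jund, Atf3, Junb and Jun lie above 1 and Fosl2 below 1 under each of these settings.

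Of the 9 measured factors, 4 had a whole interval above 1 and 1 below. Over all measured genes the shares were 20.2% above and 16.5% below. Intervals narrow with depth, and of the genes that averaged 500 counts or more 35.6% were above and 22.1% below, against 4 and 1 of the 8 early response factors in that range. No early response factor passed the size rule, an interval wholly above 2-fold or below 0.5, which 0.0765% and 0.0904% of measured genes met. The shares over all genes depend on scaling: with total gene counts they were 14.4% above and 22.4% below, and the members above and below stayed at 4 and 1. The median log2 ratio was 0.09 over the 9 factors, 0.01 over measured genes and 0.04 over the deeper genes.

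**Figure D3:**
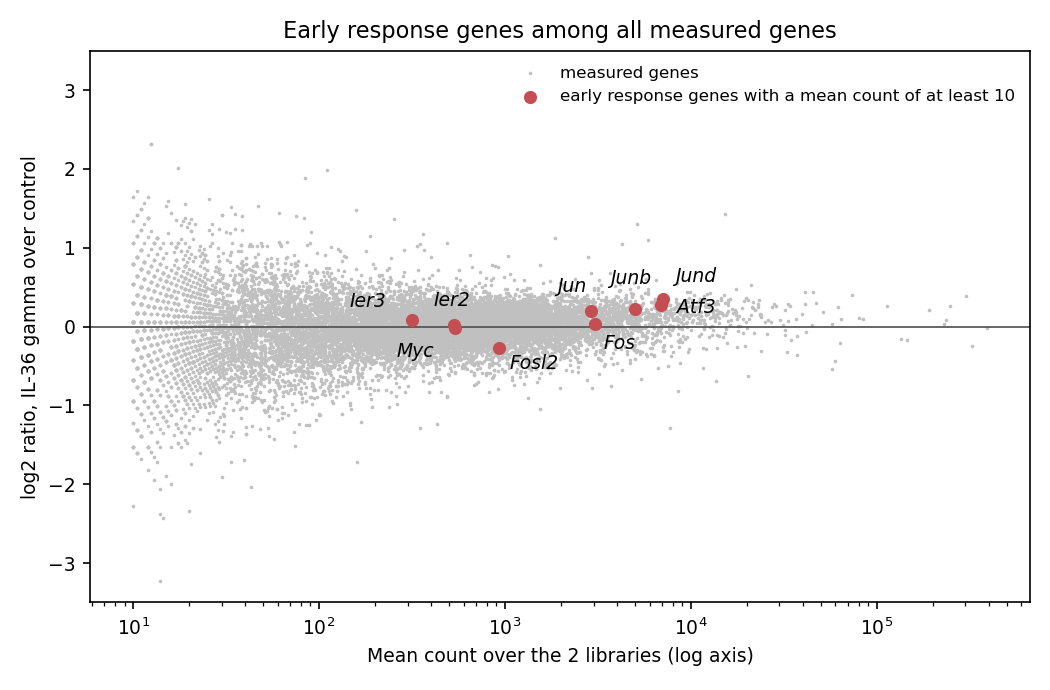
log2 ratio of IL-36 gamma over control against the mean count of both libraries (log axis) for the 14379 measured genes in grey and the 9 measured early response factors in red. Jund, Atf3, Junb and Jun lie between 0.20 and 0.35 and Fosl2 at -0.27, all inside the cloud of genes of like depth.

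The JUN share of the AP-1 transcripts was larger in the IL-36 gamma library. Per exon length, JUN transcripts summed to 380 in the control and 466 in the IL-36 gamma library, and FOS transcripts to 81.7 and 82.8. The JUN to FOS ratio was 4.66 and 5.63. Counted without division by length, JUN made up 76.8% (76.2 to 77.4) and 80.4% (79.9 to 81.0) of the FOS and JUN counts, with intervals that did not overlap. Within JUN, Jund was the leading transcript at 45.9% (45.1 to 46.8) and 48.3% (47.5 to 49.1) of counts. Within FOS, Fos held 90.9% and 91.7% of the level per exon length, and Fosl2 7.36% and 6.01%. Of FOS counts, Fos held 74.0% and 77.3%, and Fosl2 24.7% (23.4 to 26.0) and 20.9% (19.6 to 22.2). The lead of Fos over Fosl2 thus depends on the length used. These shares describe transcripts, not proteins or dimers.

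**Figure D4:**
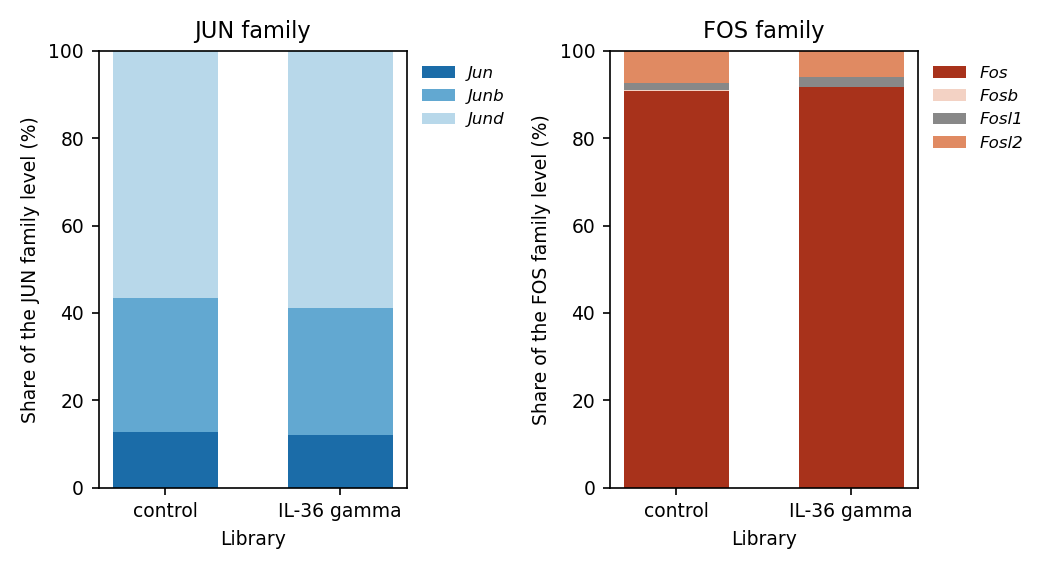
Share of each gene (percent) in its own family's summed level per exon length, for the JUN family on the left and the FOS family on the right, in the control library and the IL-36 gamma library. Jund holds 56.6% and 58.9% of the JUN level, ahead of Junb at 30.5% and 29.1%, with Jun lowest, and Fos holds 90.9% and 91.7% of the FOS level. Without division by length, Fos holds 74.0% and 77.3% of FOS counts.

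Length and base composition varied with the ratio across all genes. The decile of measured genes with the longest exon sequence, from 9235 bases up, had a median log2 ratio of -0.16. Fosl2, with 9680 exonic bases, falls in that decile. The decile with exon lengths from 1132 to 1877 bases had a median log2 ratio of 0.13, and holds Jund at 1668 and Ier2 at 1522. By GC content, Jund at 67.1%, Junb at 62.6% and Ier2 at 60.9% lie in the highest decile, which had a median log2 ratio of 0.07. With the length trend removed, Jund was at 1.18, Atf3 at 1.13, Jun at 1.10, Junb at 1.09 and Fosl2 at 0.894 (0.815 to 0.981), so each stayed on its side of 1. With the GC trend removed, Jund was at 1.20, Atf3 at 1.19, Jun and Junb at 1.11 and Fosl2 at 0.810.

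Gene structure varied among the early response factors, from the 1131 exonic bases of Ier3 to the 9680 of Fosl2. Jun, Junb, Jund and Ier2 are single-exon genes, as are 2.23% of 11726 measured protein-coding genes. AU-rich pentamers (ATTTA) occurred in the 3′ untranslated region of 9 of the 10 members, and of 65.0% of those genes. Ier3 held 8.16 per kilobase, Fos 4.91, Myc 4.53, Junb 4.12, Jun 3.24 and Atf3 2.53, against a median of 1.18. Jund at 1.88 and Fosl2 at 1.72 were nearer to that median, and Fosb at 0.466 and Ier2 at 0 were under it. The nonamer TTATTTATT was found in Fos and Fosl2, and in 6.98% of genes. The relation of pentamers to the ratios was not tested.

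RefSeq promoter sequences (GRCm38.p6, 250 bases before to 50 after a start) were found for 8 of the 10 genes. Ier2 and Myc are the other members. Of the 8, 4 held the cyclic AMP response element core TGACG on either strand (Atf3, Fos, Fosb and Junb), which 20.8% of 32851 promoters also held. The full element TGACGTCA was in 0 of 8, and in 1.79% of promoters, and the AP-1 consensus TGANTCA was in 0 of 8, and in 7.81%. The core is part of the full element, so these searches overlap. Jun alone among the 8 held TGACATCA, found in 3.62% of promoters, and TTACCTCA, found in 0.889%, both variants of the AP-1 element described in the Jun promoter. The CArG box was in 0 of 8 and 1.63% of promoters, and the GC box GGGCGG in 6 of 8 and 35.7%. Sites farther than 250 bases upstream were not searched, so a 0 here does not show that a gene lacks the element. The matches are shown because they are the elements that AP-1 and ATF proteins are known to bind, and each is a match of letters. Sequences are given 5′ to 3′ on the strand of the gene, with the match in capitals. For Atf3, the capitals hold the core read from the other strand, and the RefSeq start lies inside the GENCODE gene.
Fos at chr12:85473809-85473843 (plus strand, 66 bases before the start): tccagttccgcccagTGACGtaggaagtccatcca
Atf3 at chr1:191183334-191183355 (minus strand, 7 bases before the start): ctattaatagcattaCGTCAgc
Fosb at chr7:19310086-19310120 (minus strand, 60 bases before the start): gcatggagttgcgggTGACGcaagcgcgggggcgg
Junb at chr8:84978835-84978869 (minus strand, 106 bases before the start): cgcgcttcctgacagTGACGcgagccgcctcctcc
Jun at chr4:95052245-95052282 (minus strand, 45 bases before the start): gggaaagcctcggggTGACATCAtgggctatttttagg
Jun at chr4:95052364-95052401 (minus strand, 164 bases before the start): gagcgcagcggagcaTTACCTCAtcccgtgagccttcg
Such matches were present both in Jun, Junb and Atf3, with intervals above 1, and in Fos and Fosb, with intervals that spanned 1. None was found in Jund, above 1, in Fosl2, below 1, or in Ier3, whose interval spanned 1. Fosb was under the count filter.

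The lists around these genes are read against the 20.2% above and 16.5% below of all measured genes, and their deeper genes, those averaging 500 counts or more, against 35.6% and 22.1%. List values were not adjusted for the length or GC trend, and the part of gene length in them was not tested. The lists were chosen with earlier results of these data known, so a share past the background is a description and not independent evidence. The other FOS, JUN and ATF family members were 7 of 16 above 1 and 1 below (6 and 1 of 11 deeper genes), with a median log2 ratio of 0.16. Batf, which pairs with JUN proteins, had 465 and 834 counts, a ratio of 1.88 (1.68 to 2.11). Jdp2, a JUN-binding relative that represses AP-1 sites, was at 1.51 (1.34 to 1.70) and Atf5, a stress factor of the ATF family, at 1.46 (1.37 to 1.55). C/EBP factors, the other basic zipper family of macrophages, were 5 of 7 above 1 and 0 below (4 and 0 of 5 deeper genes). Ddit3, the stress factor CHOP, was at 1.85 (1.59 to 2.14) and Cebpb at 1.39 (1.33 to 1.45). MAF and NRF partners were split, with 3 of 10 on each side (2 above and 3 below of 7 deeper genes). Nfe2l1, a stress factor of the NRF group, had 5009 and 5425 counts, a ratio of 1.14 (1.09 to 1.18).

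Upstream of AP-1, the kinases were 7 of 23 above 1 and 3 below, with a median log2 ratio of 0.02. Of the 17 deeper kinases 6 were above and 2 below, a share above 1 close to that of all deeper genes. Map2k2, a kinase of the ERK branch, was at 1.24 (1.18 to 1.31), and Map3k5, a stress kinase upstream of JNK and p38, was at 0.696 (0.590 to 0.819). Serum response factor and its partners were 0 of 8 above and 2 below (0 and 2 of 5 deeper genes). Other immediate early genes were 15 of 40 above 1 and 6 below (12 and 4 of 22 deeper genes), with a median log2 ratio of 0.03, close to the 0.01 of all measured genes. Egr2, a zinc finger factor of macrophage activation, had 250 and 71 counts, a ratio of 0.298 (0.226 to 0.389), and was the 1 gene of that list past the size rule. Gadd45b, which activates stress kinases, was at 1.72 (1.55 to 1.90) and Socs3, a feedback inhibitor of cytokine signalling, at 1.51 (1.38 to 1.64).

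Factors listed for the decay of AU-rich messenger RNA were 1 of 16 above 1 and 8 below (1 and 6 of 12 deeper genes), with a median log2 ratio of -0.12. The list also holds Elavl1, which stabilizes such RNA, and factors of RNA decay in general, such as Cnot1 at 0.829 (0.783 to 0.877). Its counts thus do not describe AU-rich decay alone. Zfp36l1 and Zfp36l2, which bind AU-rich elements, were at 0.785 (0.739 to 0.835) and 0.809 (0.778 to 0.841). Zfp36, which does the same, went the other way at 1.14 (1.08 to 1.20), and is named after its value was seen. Genes listed for the turnover of FOS, JUN and MYC proteins were 0 of 8 above and 2 below (0 and 1 of 5 deeper genes), with a median log2 ratio of 0.00 and a mean of -0.06. That list mixes factors that remove these proteins with factors that stabilize them, such as Usp28, so its counts have no single functional direction.

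AP-1 target genes were 4 of 22 above 1 and 10 below (4 and 7 of 16 deeper genes), with a median log2 ratio of -0.09. Mmp12, the macrophage elastase, had 11107 and 4332 counts, a ratio of 0.409 (0.395 to 0.424), past the size rule. Itgax was at 0.541 (0.473 to 0.619), Plau, the urokinase gene, at 0.595 (0.568 to 0.624), and Spp1, which encodes osteopontin, at 0.688 (0.680 to 0.696). Mmp12, Plau and Spp1 are known to be regulated by other factors besides AP-1.

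ATF4 and CHOP stress genes, which are known to rise together with Atf3, were 13 of 17 above 1 and 1 below (7 and 0 of 8 deeper genes), with a median log2 ratio of 0.36. Asns, the asparagine synthetase gene, had 230 and 497 counts, a ratio of 2.27 (1.94 to 2.66). Trib3, a pseudokinase induced by CHOP, was at 2.23 (1.79 to 2.79), and Phgdh, the first enzyme of serine synthesis, had 42 and 109 counts and a ratio of 2.72 (1.89 to 3.99). The lower bounds stayed under 2-fold in all 3. Of these 17 genes, 5 are also in another of the lists, all 5 above 1, and 3 of them (Cebpb, Cebpg and Ddit3) are among the 5 C/EBP factors above 1. Genes that ATF3 is known to restrain were 3 of 9 above 1 and 2 below (3 and 1 of 4 deeper genes), with a median log2 ratio of 0.24 and a mean of -0.06. Il12b had 26 and 3 counts, a ratio of 0.121 (0.0235 to 0.395), and passed the size rule, while Lcn2, an iron-binding secreted protein gene, was at 1.69 (1.54 to 1.86) and Ccl4, a chemokine gene, at 1.32 (1.21 to 1.44). Lcn2 is also abundant in neutrophils, whose summed markers were at 151 and 243 CPM, and their part in its value was not tested.

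MYC target genes were 16 of 28 above 1 and 0 below (13 and 0 of 22 deeper genes), with a median log2 ratio of 0.12, while Myc itself was at 0.987. Ldha, of lactate production, was at 1.18 (1.15 to 1.20), Eif5a, a translation factor gene, at 1.19 (1.16 to 1.22), and Mrto4, of ribosome assembly, at 1.33 (1.15 to 1.54). MYC partners and relatives were 2 of 15 above and 4 below (1 and 4 of 10 deeper genes). Heat shock and handling genes, which can rise when cells are disturbed, were 5 of 11 above 1 and 1 below (5 and 1 of 8 deeper genes). Their median log2 ratio was 0.12, and Hspa8 was at 1.10 (1.09 to 1.13). Hspa1a, with 51 and 53 counts, and Hspa1b, with 39 and 39, had intervals that spanned 1. Bag3 was the gene below, at 0.896 (0.819 to 0.980). Hspa1a, Hspa1b and Bag3 are named after their values were seen. The part of handling in the values of the early response factors was not tested.

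**Figure D5:**
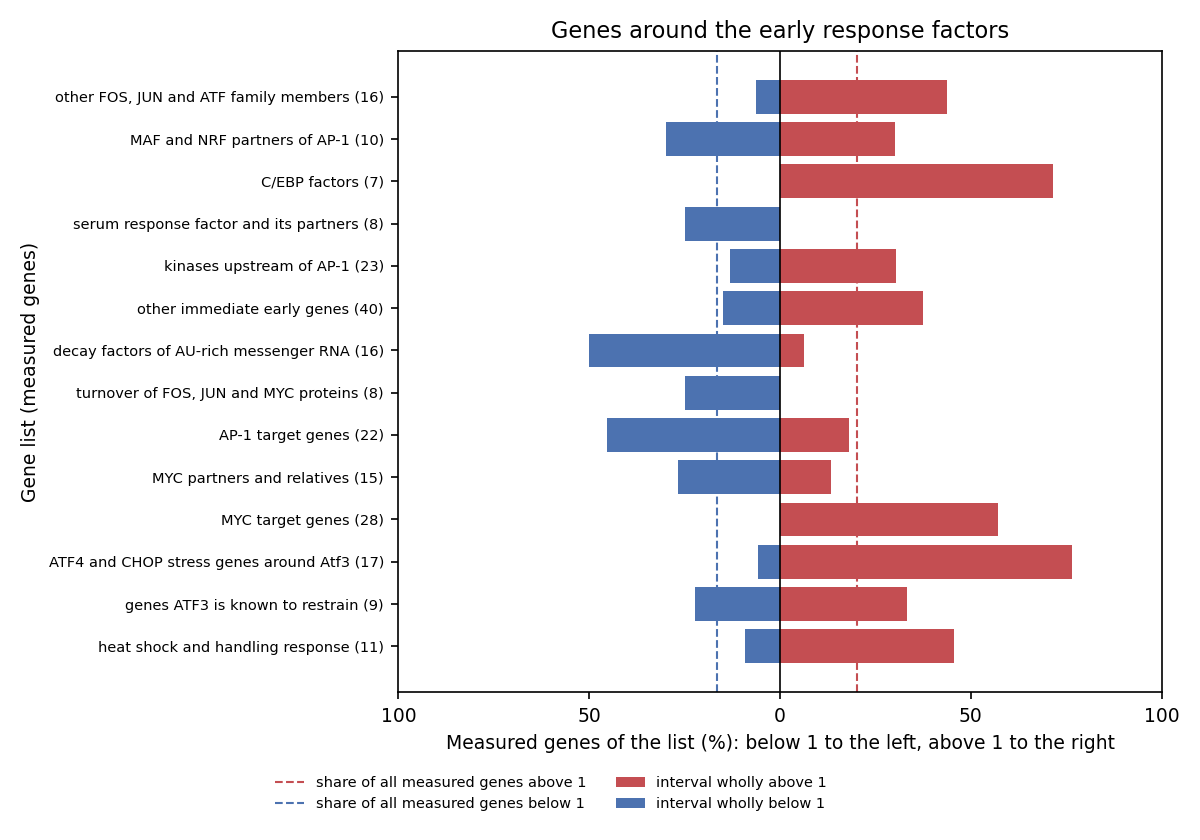
Percent of the measured genes of each list whose 95% counting interval lies wholly above 1 (right, red) or wholly below 1 (left, blue), with the number of measured genes in brackets; dashed lines are the shares over all 14379 measured genes, 20.2% above and 16.5% below. ATF4 and CHOP stress genes and C/EBP factors reach 76.5% and 71.4% above, and 8 of 16 genes of the AU-rich decay list lie below. The lists were chosen with earlier results of these data known.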

How the data were processed

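The authors deposited unnormalized whole counts for each Ensembl gene. HTSeq, STAR 2.5.0a, Trim Galore 0.6.1 and FastQC 0.11.8 are named, with mm10, per the submitters' processing notes. Annotation release and strandedness were not given in the sources used here. Left out of library sizes were the counter's 5 rows that name no gene. Reads that fell in no gene feature were 47.2% of the control and 46.3% of the IL-36 gamma total. Ambiguous reads were a further 1.8% in both, and reads that were not unique 6.65% and 6.92%.

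Counts were scaled by TMM factors (R 4.3.3 with edgeR 4.0.16), which were 1.02 (control) and 0.981 (IL-36 gamma). A replicate test was left out, since single libraries give no residual degrees of freedom. Ratios have exact 95% Clopper-Pearson intervals, levels have exact Poisson intervals and shares have exact binomial intervals. They cover counting error only and leave out the spread between cultures. Copies made by PCR are not independent molecules, so the intervals may be too narrow even for counting error. The floor of 3 counts is 0.169 and 0.177 CPM. log2 ratios used a prior count of 2. GENCODE M21 gave positions and lengths (54409 IDs matched). Trends used lowess with a span of 0.3. The interval script was tested on simulated counts.

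The members and gene lists were chosen with earlier results of these data known. Named genes are all members, genes that overlap them, and up to 4 of each of 14 lists, those past the size rule first and then those with an interval on 1 side of 1, ranked by its nearest bound; some of these are shown, and 1 is not reported here. In the text, above or below 1 means the whole interval. For Ddit3, which has 2 gene models, the one with the longer coding region was used. Python 3.11.15 with statsmodels 0.14.6 and scipy 1.17.1 was used. The alternatives were other scalings (DESeq2 1.42.0 among them), filters, interval levels, fold bounds, prior counts, trends and lengths. The GC trend, the coding length, the background of genes averaging 500 counts or more, the omission of Jund and the sum with Gm11175 were added after seeing the data.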

Additional observations from a re-analysis of the deposited data

How the results depend on the processing

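Under every alternative run, Jund, Atf3, Junb and Jun kept an interval above 1 and Fosl2 one below 1, and no early response factor passed the 2-fold size rule. The lowest values were 1.18 for Jund, 1.13 for Atf3, 1.09 for Junb and 1.10 for Jun, and the highest for Fosl2 was 0.894. Fos, Ier2 and Ier3, just above 1 with TMM scaling, were below 1 under at least 1 alternative, lowest with the length trend removed at 0.956, 0.940 and 0.987, and their intervals still spanned 1. The median log2 ratio of the measured early response factors was 0.0876, and -0.0196 with the length trend removed. The JUN share of FOS and JUN levels in the control was 82.3% per exon length, 76.8% in raw counts and 78.0% per coding length, and in the IL-36 gamma library 84.9%, 80.4% and 81.5%. No paired analysis was possible because each group has 1 library, and no library could be left out. The spread between cultures was not measured, so a ratio of 1.15 to 1.28 cannot be set against it. Fosb had too few counts for a statement on direction.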
